A study of Rattus norvegicus with 6 samples.

Results

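The subunits that the nuclear genome contributes to respiratory chain complexes II, III and IV and to ATP synthase (complex V) were followed in heart muscle cells given perhexiline. They were chosen by name alone: protein-coding genes on nuclear chromosomes called Sdha to Sdhd or Cyc1, or whose symbol starts with Uqcr, Cox4 to Cox8 or Atp5. This gave 50 of the 34257 genes in the table, with 4 in complex II, 10 in complex III, 20 in complex IV and 16 in complex V. They carry 48 different symbols, because Uqcrb (chromosomes 1 and 7) and Cox6b1 (chromosomes 1 and 2) each have 2 genes, which are told apart here by chromosome. Uqcrb of chromosome 1 and Cox6b1 of chromosome 2 span only their listed lengths of 475 and 261 bases, which leaves no room for introns. Whether they are copies of their namesakes was not tested. The cells were ventricular cardiomyocytes cultured from newborn rats, with no genetic change stated, and poly(A) RNA was sequenced from 3 libraries given vehicle and 3 given perhexiline at 1 µM for 24 h. Perhexiline is an antianginal drug known as an inhibitor of carnitine palmitoyltransferase, through which long-chain fatty acids enter mitochondria. The labels name no separate culture, isolation or animal for a replicate, so a p-value here speaks only of the spread among these 6 samples, and that spread may be technical.

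Complex II (succinate dehydrogenase) and complex III (the cytochrome bc1 complex) pass electrons through ubiquinone to cytochrome c, complex IV (cytochrome c oxidase) passes them on to oxygen, and complex V uses the proton gradient that complexes I, III and IV build to make ATP. All subunits of complex II are nuclear, whereas the mitochondrial genome supplies cytochrome b to complex III, the 3 catalytic subunits of complex IV and 2 membrane subunits of complex V. Heart muscle is packed with mitochondria, and some complex IV subunits have a heart and skeletal muscle form that takes the place of a ubiquitous form as the heart matures.

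Values are FPKM, which are scaled for gene length, and levels of different genes are compared on that scale only. The counting method is not given, so such comparisons are less certain for genes with copies or as short as Atp5md (177 bases). Depth was 13616252 to 15241994 fragments per vehicle library and 14863929 to 16702523 per perhexiline library, so that 1 fragment on a gene of 1 kb was worth 0.0574 to 0.0727 FPKM. The cardiomyocyte identity of the cultures showed in 13 tested marker genes, whose summed level was 20330 to 24483 FPKM in the vehicle libraries. Markers of other cells were also present, with 1689 to 1757 FPKM for 12 fibroblast markers. The 10 smooth muscle and pericyte markers summed to 1293 to 1786 FPKM. That sum was led by Acta2, Des and Tagln, with vehicle means of 697, 589.5 and 199 FPKM, and the next highest, Pdgfrb, was at 42.3 FPKM. It is therefore no measure of the share of such cells. The 9 endothelial markers summed to 17.3 to 20.3 FPKM, Cldn5 among them being listed at 0.

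Of the 50 genes, 46 reached the minimum level for testing, which was 1 FPKM or more in 3 or more libraries. The other 4 all belong to complex IV. Cox8c, Cox7b2 and the pseudogene-named Cox6c-ps1 were listed at 0 in all 6 libraries. Cox7a1, the muscle form of subunit VIIa, had 1 to 15 fragments per library, or 0.0479 to 0.580 FPKM.

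The tested genes were among the most abundant messages of these cells. Atp5f1b, the catalytic beta subunit of ATP synthase, stood highest at 2274 ± 78.8 FPKM (SD, n = 3 vehicle libraries), followed by Cox6a1 of complex IV at 1199 ± 63.2 FPKM and Atp5f1a, the alpha subunit of ATP synthase, at 1098 ± 45.8 FPKM. The middle gene of each complex in the vehicle libraries was at 338 FPKM in complex II, 314 in complex III, 504 in complex IV and 467 in complex V. Cox4i2, Cox6b2 and Atp5pb were the lowest tested genes, with vehicle means of 1.80, 3.41 and 6.04 FPKM.

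**Figure D1:**
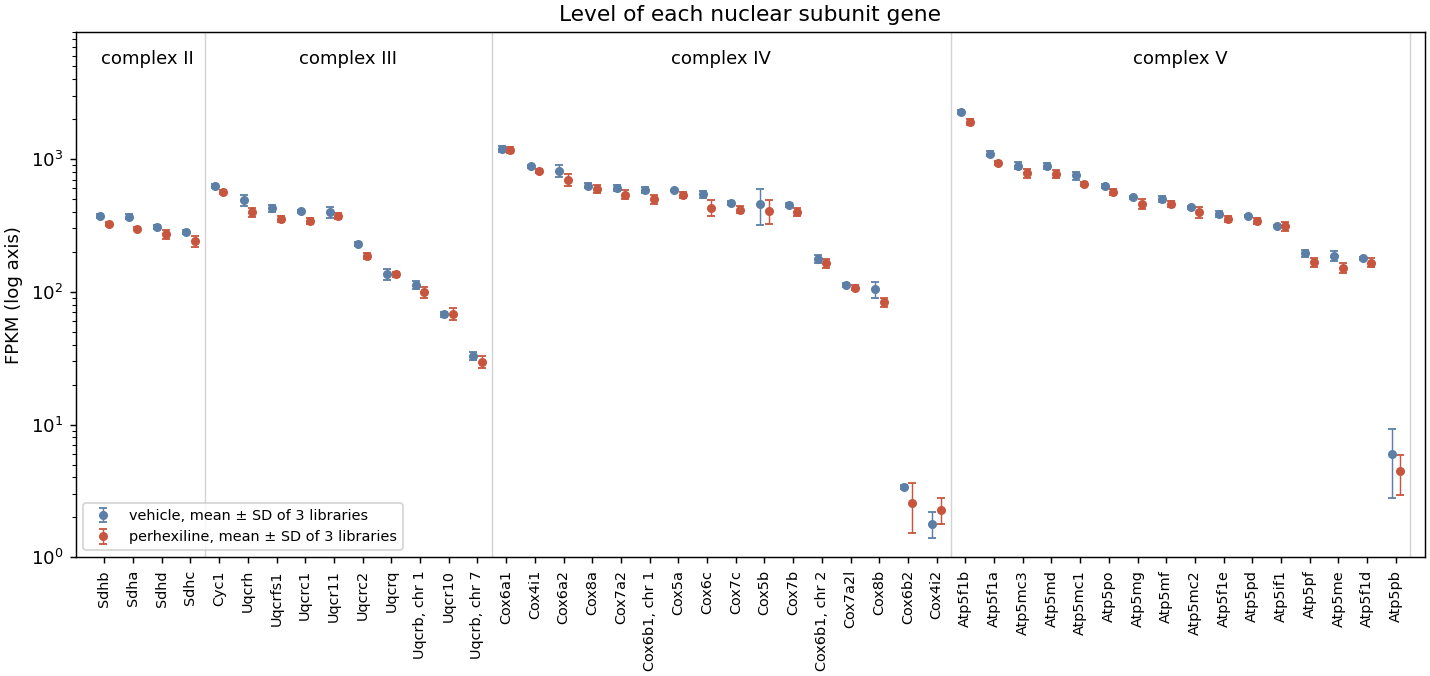
Level of each of the 46 tested genes, as mean FPKM on a log axis with bars of ± 1 SD over 3 vehicle libraries (blue) and 3 perhexiline libraries (red), ordered by level within complexes II to V. Atp5f1b is highest at 2274 FPKM with vehicle, and Cox6b2, Cox4i2 and Atp5pb lie below 10 FPKM.

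With perhexiline, 43 of the 46 tested subunit genes had a log2 difference below 0, against 47.1% of all 13460 genes tested. By limma with Benjamini-Hochberg adjustment over all genes, 5 of the 46 were lower and 0 were higher at an adjusted p under 0.05. Of all genes, 3.11% were lower and 3.55% were higher. At an unadjusted p under 0.05, 25 subunit genes were lower and 0 were higher, beside 3460 of all 13460 genes in either direction. The 5 that fell were Sdha and Sdhb of complex II and Uqcrc1, Uqcrc2 and Uqcrfs1 of complex III. In 23 of the 46 all perhexiline libraries lay below all vehicle libraries, against 14.9% of all genes. The median log2 difference was -0.17, a level of 0.888 times vehicle, beside a median of 0.01 over all genes. Among all 739 genes with a mean of at least 100 FPKM, 409 lay below 0, 83 were called lower and the median was -0.03. An unadjusted p under 0.05 in either direction was found for 337 of the 739. In 221 of the 739 all perhexiline libraries lay below all vehicle libraries. Of the 40 subunit genes among them, 39 lay below 0, 5 were called lower, 24 had an unadjusted p under 0.05 and 22 lay apart in this way. The share of subunit genes called lower was thus close to that of all genes at this level. In bulk RNA, fewer cardiomyocytes in a culture and less of these messages per cardiomyocyte cannot be told apart.

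These calls depended on single libraries. Without vehicle 1, vehicle 2, perhexiline 2 or perhexiline 3, 0 of the 46 genes passed by limma, with 13 to 17 at an unadjusted p under 0.05 and a smallest adjusted p of 0.0802 to 0.0826, and the number of all genes called lower dropped from 418 to between 30 and 51. Without vehicle 3, Sdha, Uqcrc2 and Uqcrfs1 passed among 5 genes, and without perhexiline 1 they and Uqcrc1 passed among 9, while Sdhb passed in none of these fits. With no filter on low values 0 passed by limma (smallest adjusted p 0.060, with 21 at an unadjusted p under 0.05). With libraries scaled to equal totals of fragments only Sdha and Uqcrc2 passed, and calls over all genes shifted from 418 lower and 478 higher to 337 lower and 815 higher. The limma-voom test of fragments recovered from the values called 12 of the 46 lower, beside 6.43% of all genes by that test.

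**Figure D2:**
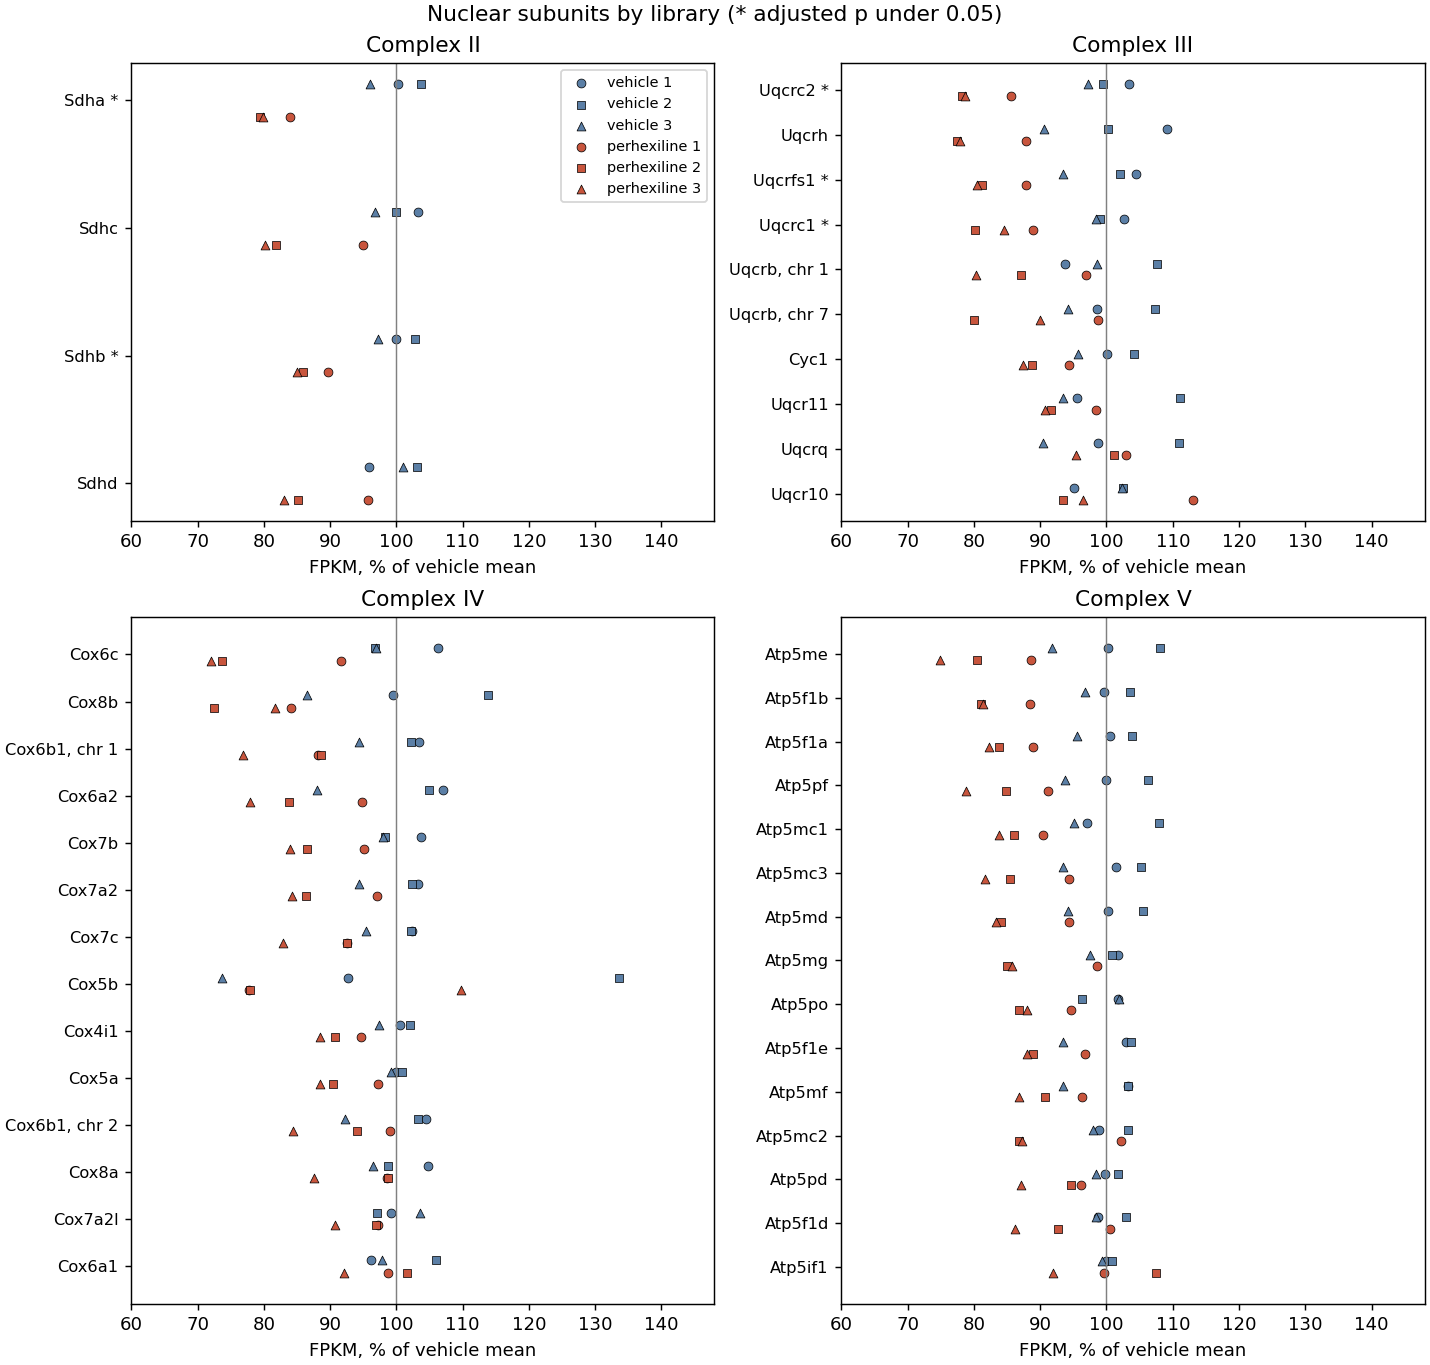
FPKM of each subunit gene in each library as a percentage of its vehicle mean, by complex, for the 43 tested genes other than Cox4i2, Cox6b2 and Atp5pb, which lie below 10 FPKM. Blue symbols are vehicle and red symbols perhexiline, shapes give the replicate, asterisks mark an adjusted p under 0.05, and genes are ordered by log2 difference; the red symbols lie to the left of the blue in most rows.

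In complex II all 4 genes had every perhexiline library below every vehicle library, 2 of them were called lower, and the median log2 difference was -0.21. Sdha, the flavoprotein that oxidizes succinate (ENSRNOG00000013331, chromosome 1, 31545631 to 31570601, plus strand, genome build not given in the sources used here, as for all coordinates of this table), was at 369.9, 382 and 354 FPKM in vehicle 1 to 3 and 309.7, 293 and 295 FPKM in perhexiline 1 to 3. Its groups were separate, with perhexiline 1 highest among the treated libraries. Sdha fell by 18.9%, from 369 ± 14.2 to 299 ± 9.24 FPKM, a log2 difference of -0.30 (standard error 0.0499, 95% interval -0.42 to -0.18, limma adjusted p = 0.0223).

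Sdhb, which carries the iron-sulfur clusters (ENSRNOG00000007967, chromosome 5, 159484370 to 159505064, plus strand), was at 372, 383 and 362 FPKM in vehicle 1 to 3 and 334, 320.1 and 317 FPKM in perhexiline 1 to 3. Again the groups did not overlap, and the lowest vehicle value stood above the highest perhexiline value. Sdhb fell by 13.1%, with a log2 difference of -0.20 (standard error 0.0468, limma adjusted p = 0.0467). The membrane anchors that hold the enzyme at the inner membrane and bind ubiquinone did not pass. Sdhc was at 290.1, 280.4 and 272 FPKM in vehicle 1 to 3 and 267, 229.6 and 225 FPKM in perhexiline 1 to 3 (log2 difference -0.23, limma adjusted p = 0.0984). Sdhd was at 295, 317 and 310.1 FPKM in vehicle 1 to 3 and 294, 261 and 255 FPKM in perhexiline 1 to 3 (log2 difference -0.19, limma adjusted p = 0.124), and its highest perhexiline value came within 1 FPKM of the lowest vehicle value.

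In complex III, 3 of 10 genes fell, 5 had separate groups, and the median log2 difference was -0.17. The pair of core proteins that form its matrix side both fell. Uqcrc1 (ENSRNOG00000032134, chromosome 8, 117679278 to 117691071, plus strand) was at 413, 398 and 396 FPKM in vehicle 1 to 3 and 358, 323 and 340.3 FPKM in perhexiline 1 to 3. It fell by 15.4%, with a log2 difference of -0.24 (standard error 0.0530, limma adjusted p = 0.0408). Uqcrc2 (ENSRNOG00000036742, chromosome 1, 190555177 to 190585734, plus strand) was at 237, 228 and 223 FPKM in vehicle 1 to 3 and 196, 179 and 180.2 FPKM in perhexiline 1 to 3. It fell by 19.2%, with a log2 difference of -0.31 (standard error 0.0530, limma adjusted p = 0.0245), which with Sdha was among the 2 smallest adjusted p-values of the 46 genes.

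Uqcrfs1, the Rieske iron-sulfur protein that takes electrons from ubiquinol (ENSRNOG00000018281, chromosome 17, 35677984 to 35682259, plus strand), was at 444, 434 and 397 FPKM in vehicle 1 to 3 and 373, 345 and 342 FPKM in perhexiline 1 to 3. Its groups were separate, although vehicle 3 and perhexiline 1 were closer to each other than to any library of their own groups. Uqcrfs1 fell by 16.8%, with a log2 difference of -0.26 (standard error 0.0613, limma adjusted p = 0.0466). Cyc1, cytochrome c1, which hands the electron on to cytochrome c, was at 628, 653 and 599.7 FPKM in vehicle 1 to 3 and 591, 557 and 548 FPKM in perhexiline 1 to 3. It did not pass, with separate groups, a log2 difference of -0.15 and an adjusted p of 0.145 by limma.

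The 6 accessory genes of complex III, which surround this core, gave 0 calls by limma and 1 unadjusted p under 0.05, and limma-voom called 1 lower. That one in both tests was Uqcrh, the acidic hinge protein next to cytochrome c1, at 533, 489.6 and 442 FPKM in vehicle 1 to 3 and 429, 378 and 380.0 FPKM in perhexiline 1 to 3. Its log2 difference of -0.30 was close to that of Uqcrc2 but its spread was wider (standard error 0.0820, limma adjusted p = 0.0700, and 0.0266 by limma-voom). Uqcr10 and Uqcrq had log2 differences of 0.0096 (95% interval -0.17 to 0.19) and 0.0021 (95% interval -0.18 to 0.18), whose sign turns below 0 under upper-quartile and median-of-ratios scaling and by limma-voom. Uqcrq was at 134, 150.4 and 123 FPKM in vehicle 1 to 3 and 139.6, 137 and 129.5 FPKM in perhexiline 1 to 3, with the groups overlapping widely. Uqcr11 and the Uqcrb genes of chromosomes 1 and 7 had log2 differences of -0.092, -0.18 and -0.16, all with overlapping groups (limma adjusted p = 0.479, 0.204 and 0.288).

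Sites for the nuclear respiratory factor NRF1, for ETS factors such as GABP, for estrogen-related receptors (ERR) and for YY1 are known from the promoters of a number of respiratory chain genes. The region from 250 bases before to 50 bases after the RefSeq start was available for 39 of the 50 genes (RefSeq, build GRCr8), and was searched on both strands for the letters GCGCANGCG (NRF1), CCGGAAG (ETS), TCAAGGTCA (ERR) and AAGATGGCG (YY1). The stretches of 4 of the genes that fell are shown because they hold such matches, which are in capitals, 5′ to 3′ on the strand of the gene. They lie at chr1:30764303-30764602 (Sdha), chr5:158547684-158547983 (Sdhb), chr8:118467973-118468272 (Uqcrc1) and chr1:184598990-184599289 (Uqcrc2), all on the plus strand.
Sdha: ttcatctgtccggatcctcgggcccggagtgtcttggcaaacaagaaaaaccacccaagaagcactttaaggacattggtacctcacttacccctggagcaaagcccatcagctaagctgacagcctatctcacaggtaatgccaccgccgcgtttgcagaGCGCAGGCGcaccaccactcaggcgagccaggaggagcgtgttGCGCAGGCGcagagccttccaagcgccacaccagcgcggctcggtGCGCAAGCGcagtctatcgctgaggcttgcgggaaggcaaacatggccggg
Sdhb: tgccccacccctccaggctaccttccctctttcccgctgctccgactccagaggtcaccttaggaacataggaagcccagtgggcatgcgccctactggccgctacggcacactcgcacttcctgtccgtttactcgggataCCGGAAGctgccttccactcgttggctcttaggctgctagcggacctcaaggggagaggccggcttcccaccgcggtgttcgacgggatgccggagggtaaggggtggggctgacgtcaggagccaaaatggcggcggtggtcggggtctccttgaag
Uqcrc1: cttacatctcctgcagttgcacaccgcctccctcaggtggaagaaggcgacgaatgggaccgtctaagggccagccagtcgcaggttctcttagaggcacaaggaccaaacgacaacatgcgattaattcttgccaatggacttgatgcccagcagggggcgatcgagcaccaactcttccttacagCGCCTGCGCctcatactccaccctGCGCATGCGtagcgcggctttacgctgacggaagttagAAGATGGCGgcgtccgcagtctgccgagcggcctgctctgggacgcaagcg
Uqcrc2: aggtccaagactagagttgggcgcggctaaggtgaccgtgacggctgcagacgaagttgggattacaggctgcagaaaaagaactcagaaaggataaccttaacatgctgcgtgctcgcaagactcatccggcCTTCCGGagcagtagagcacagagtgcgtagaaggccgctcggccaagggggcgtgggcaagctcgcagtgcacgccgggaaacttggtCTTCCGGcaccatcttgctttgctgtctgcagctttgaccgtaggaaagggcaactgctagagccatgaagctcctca
Sdha holds 3 NRF1 matches, Sdhb 1 ETS match, Uqcrc1 2 NRF1 matches and 1 YY1 match, and Uqcrc2 2 ETS matches, whereas the window of Uqcrfs1 holds none of these letters.

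The 5 genes that fell thus differed in which of these letters their windows held. Over the 39 windows, 8 (20.5%) held the NRF1 letters, against 5.8% of 33465 RefSeq promoters and 13.06% of those of the other genes tested here. The ETS letters were in 14 (35.9%), against 8.75% and 17.51%. The YY1 letters were in 3 (7.7%), against 1.73% and 3.71%, and the ERR letters were in 2 (5.1%), against 0.43% and 0.26%. Any of the 4 was found in 21 windows and none in 18, among them those of the muscle genes Cox6a2, Cox7a1 and Cox8b. Median GC content was 55.3% in these windows and 51.7% in all, and a match describes the letters only, not binding.

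None of the 16 tested genes of complex IV passed by limma, with 7 at an unadjusted p under 0.05 and 7 with separate groups, and the median log2 difference was -0.16. Of all 739 genes with a mean of at least 100 FPKM, 337 had an unadjusted p under 0.05 in either direction. In 221 of the 739 all perhexiline libraries lay below all vehicle libraries. By limma-voom 2 were lower, Cox6c and the Cox6b1 gene of chromosome 1. Cox4i1, the largest nuclear subunit, known for regulation by ATP, was at 889, 901 and 860.1 FPKM in vehicle 1 to 3 and 837, 801 and 781 FPKM in perhexiline 1 to 3 (log2 difference -0.13, limma adjusted p = 0.161). Cox5a, another early-assembling subunit, was at 581, 587 and 576 FPKM in vehicle 1 to 3 and 565, 526 and 514 FPKM in perhexiline 1 to 3 (log2 difference -0.12, limma adjusted p = 0.195). Both had separate groups, with a gap smaller than the SD of the perhexiline libraries.

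Cox6c had the largest decrease in complex IV among genes above 10 FPKM. It was at 576, 525 and 526 FPKM in vehicle 1 to 3 and 496, 399 and 391 FPKM in perhexiline 1 to 3, so that perhexiline 1 lay well above perhexiline 2 and 3, with a log2 difference of -0.34 (standard error 0.0960, limma adjusted p = 0.0728). Cox5b, a zinc-binding subunit, varied most, with 425, 613 and 338 FPKM in vehicle 1 to 3 and 357, 357 and 503 FPKM in perhexiline 1 to 3. The range of its vehicle libraries covered all 3 perhexiline values, and no difference was detectable at this spread (95% interval -0.67 to 0.37). Cox7b and Cox7c, small single-form subunits, had log2 differences of -0.18 and -0.16 with separate groups (limma adjusted p = 0.119 and 0.145).

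Subunits VIa, VIIa and VIII have muscle and ubiquitous forms. For VIa, the muscle gene Cox6a2 was at 876, 858 and 721 FPKM in vehicle 1 to 3 and 776, 685 and 638 FPKM in perhexiline 1 to 3 (log2 difference -0.22, limma adjusted p = 0.204). The ubiquitous gene Cox6a1 was at 1152, 1271 and 1173 FPKM in vehicle 1 to 3 and 1183, 1218 and 1105 FPKM in perhexiline 1 to 3 (log2 difference -0.037, 95% interval -0.19 to 0.11, a sign that turns above 0 under total-fragment scaling). Both pairs of groups overlapped. Cox6a2 amounted to 76.0%, 67.5% and 61.4% of Cox6a1 in vehicle 1 to 3 and to 65.6%, 56.3% and 57.8% in perhexiline 1 to 3, a log2 difference of -0.19 in the ratio (exact permutation test, two-sided, p = 0.2, adjusted 0.4 over 4 pairs).

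For subunit VIII, the muscle gene Cox8b was at 104, 119 and 90.6 FPKM in vehicle 1 to 3 and 88.0, 75.8 and 85.4 FPKM in perhexiline 1 to 3, with separate groups (log2 difference -0.32, limma adjusted p = 0.101). The ubiquitous gene Cox8a was at 659.9, 622 and 608 FPKM in vehicle 1 to 3 and 621, 622 and 552 FPKM in perhexiline 1 to 3, with overlapping groups (log2 difference -0.076, limma adjusted p = 0.499). Cox8b was thus the minor form, at 15.8%, 19.1% and 14.9% of Cox8a with vehicle and 14.2%, 12.2% and 15.5% with perhexiline (exact permutation test, two-sided, p = 0.2, adjusted 0.4). With 3 libraries against 3 the smallest p this test can give is 0.1, so neither ratio could have passed.

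For VIIa, the ubiquitous Cox7a2 was at 622, 617 and 569 FPKM in vehicle 1 to 3 and 585, 520.3 and 508 FPKM in perhexiline 1 to 3 (log2 difference -0.17, limma adjusted p = 0.183), against the near absence of fragments on the muscle gene Cox7a1. Cox7a2l, a relative that joins complexes III and IV in supercomplexes, was at 112, 110.0 and 117 FPKM in vehicle 1 to 3 and 110.1, 109.7 and 103 FPKM in perhexiline 1 to 3 (log2 difference -0.074, limma adjusted p = 0.386), and its groups overlapped.

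For subunit VIb, the ubiquitous Cox6b1 on chromosome 1 was at 606, 599 and 553 FPKM in vehicle 1 to 3 and 517, 519.5 and 451 FPKM in perhexiline 1 to 3 (log2 difference -0.24, limma adjusted p = 0.0832). Its namesake on chromosome 2 was at 185, 183 and 163 FPKM in vehicle 1 to 3 and 175, 167 and 149 FPKM in perhexiline 1 to 3 (limma adjusted p = 0.385), and fragments could be split between genes as alike as these. The testis form Cox6b2 was at 3.56, 3.34 and 3.35 FPKM in vehicle 1 to 3 and 2.46, 3.66 and 1.59 FPKM in perhexiline 1 to 3, from 13 to 27 fragments per library (limma adjusted p = 0.310). The lung form Cox4i2, known to respond to low oxygen, was at 2.14, 1.36 and 1.90 FPKM in vehicle 1 to 3 and 1.75, 2.41 and 2.72 FPKM in perhexiline 1 to 3 (limma adjusted p = 0.398), or 0.24%, 0.15% and 0.22% of Cox4i1 in vehicle 1 to 3 and 0.21%, 0.30% and 0.35% in perhexiline 1 to 3. Ratios to the ubiquitous form gave p = 0.3 for Cox4i2 and p = 0.5 for Cox6b2 by the exact permutation test (adjusted 0.4 and 0.5).

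**Figure D3:**
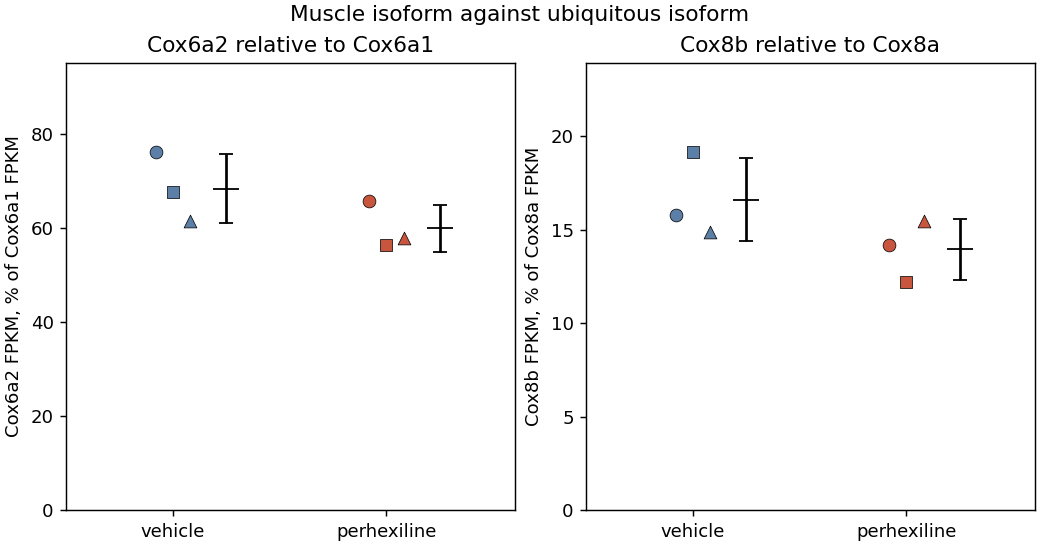
FPKM of the muscle form as a percentage of the ubiquitous form of the same subunit in each library, for Cox6a2 over Cox6a1 (left) and Cox8b over Cox8a (right), with the mean ± SD of 3 libraries beside the points. Vehicle libraries span 61.4% to 76.0% (left) and 14.9% to 19.1% (right), perhexiline libraries 56.3% to 65.6% and 12.2% to 15.5%, and the groups overlap in both panels.

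All 16 genes of complex V had a log2 difference below 0, with a median of -0.18, but 0 passed by limma; 9 had an unadjusted p under 0.05, 7 had separate groups, and limma-voom called 4 lower (Atp5f1a, Atp5f1b, Atp5me and Atp5pf). The F1 head, where ATP is made, came nearest. Atp5f1b was at 2267, 2357 and 2199.8 FPKM in vehicle 1 to 3 and 2012, 1845 and 1851 FPKM in perhexiline 1 to 3. Its log2 difference was -0.26 (standard error 0.0634, limma adjusted p = 0.0545), with means of 2274 ± 78.8 FPKM with vehicle and 1902 ± 94.8 FPKM with perhexiline. Atp5f1a was at 1104, 1139.6 and 1049 FPKM in vehicle 1 to 3 and 976, 919 and 902 FPKM in perhexiline 1 to 3, with a log2 difference of -0.23 (standard error 0.0579, limma adjusted p = 0.0553). In both genes every perhexiline library was below every vehicle library, with perhexiline 1 the highest of its group.

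The inhibitor Atp5if1, which binds the F1 head and stops it from consuming ATP when the gradient collapses, was at 314, 317 and 312 FPKM in vehicle 1 to 3 and 313, 338 and 289 FPKM in perhexiline 1 to 3. Its vehicle values were nearly equal and fell inside the range of the perhexiline values, with a log2 difference of -0.0079 (95% interval -0.15 to 0.14), whose sign turns above 0 under total-fragment scaling. The central stalk genes Atp5f1d and Atp5f1e had log2 differences of -0.10 and -0.13 (limma adjusted p = 0.336 and 0.231).

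The c-ring, the rotor that protons turn, is one protein made from 3 genes. Atp5mc3 was the most abundant of them at 893 FPKM with vehicle, followed by Atp5mc1 at 751 and Atp5mc2 at 432, and their log2 differences were -0.20, -0.20 and -0.12 (limma adjusted p = 0.141, 0.0993 and 0.319). Of the membrane accessory subunits, Atp5me had the largest difference at -0.30 (limma adjusted p = 0.0700), and Atp5md, Atp5mf and Atp5mg had -0.20, -0.13 and -0.16. Of the peripheral stalk, which holds the head still, Atp5pf, Atp5po and Atp5pd had separate groups, with log2 differences of -0.23, -0.16 and -0.11 (limma adjusted p = 0.0854, 0.126 and 0.229). Atp5pb was at 9.72, 3.52 and 4.89 FPKM in vehicle 1 to 3 and 5.97, 4.38 and 2.98 FPKM in perhexiline 1 to 3, and is uncertain, because a gene of the same length matched to the same protein, LOC100911417, took 1.39 to 13.1 FPKM in the same libraries.

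Grouped by role across complexes, an arrangement made after the values were seen, the catalytic and core genes Sdha, Sdhb, Uqcrc1, Uqcrc2, Uqcrfs1, Cyc1, Atp5f1a and Atp5f1b had a median log2 difference of -0.25, and all 8 had separate groups. The other 38 tested genes had a median of -0.16, with 15 separate groups and 0 calls by limma against 5 of the 8. Cox4i1 and Cox5a of complex IV, with log2 differences of -0.13 and -0.12, were placed among the other genes. Because the 8 were grouped with the values and calls known, these contrasts in medians, separate groups and calls carry no weight of their own. By limma-voom Cox6c, Uqcrh, the Cox6b1 gene of chromosome 1, Atp5me and Atp5pf outside the 8 were called lower too, and Cyc1 within the 8 was not. Whether the roles differ was not tested.

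The libraries of a group also differed among themselves in a shared way. The median of the 46 genes relative to the vehicle mean was 0.0077, 0.04 and -0.05 on the log2 scale in vehicle 1 to 3 and -0.07, -0.21 and -0.24 in perhexiline 1 to 3. Perhexiline 1 was the highest perhexiline library for 38 of the 46 genes, and vehicle 3 the lowest vehicle library for 36. Summed FPKM of complex V was 9656, 9966 and 9243 with vehicle and 8949, 8252 and 8062 with perhexiline. Complex II summed to 1327, 1363 and 1298 FPKM with vehicle and 1205, 1104 and 1092 with perhexiline. Together the subunit genes took 1.89%, 1.96% and 1.86% of all fragments in the vehicle libraries and 1.81%, 1.71% and 1.65% in the perhexiline libraries, so the groups did not overlap on this measure.

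**Figure D4:**
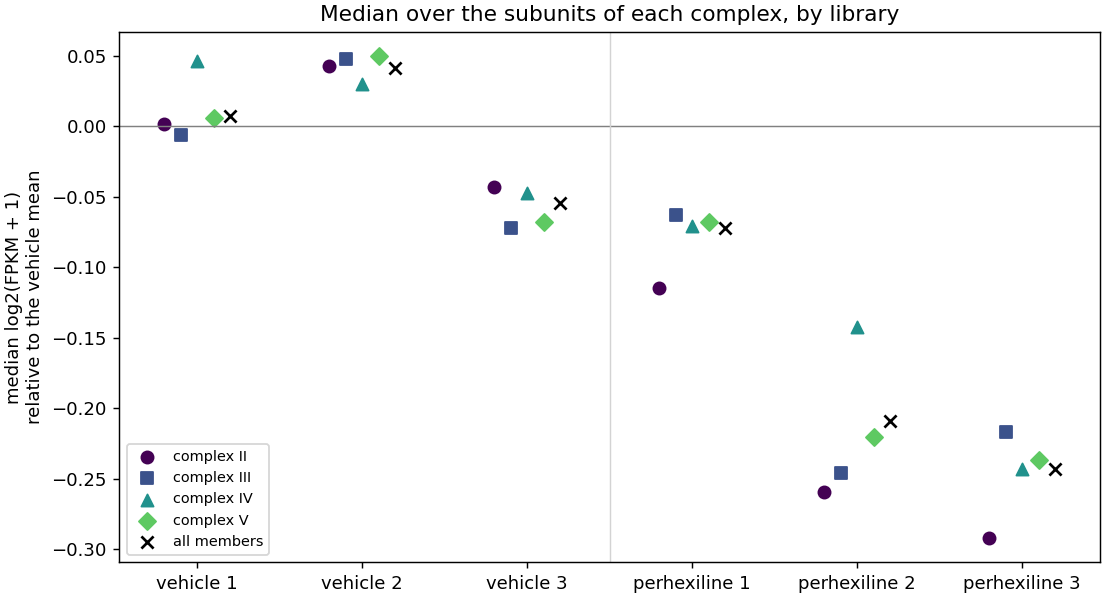
Median over the tested genes of each complex, and over all 46 (crosses), of log2(FPKM + 1) relative to the vehicle mean of each gene, in each of the 6 libraries. Perhexiline 1 lies at -0.07 over all genes, near vehicle 3 at -0.05, and perhexiline 2 and 3 lie at -0.21 and -0.24.

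The mitochondrially encoded partners of these subunits gave 3 of 6 genes that fell, separate groups in all 6, and a median log2 difference of -0.45. Among all genes tested 3.11% were called lower, and in 14.9% all perhexiline libraries lay below all vehicle libraries. Of the 739 genes with a mean of at least 100 FPKM, 83 were called lower and 221 lay apart in this way. COX2, which receives electrons from cytochrome c in complex IV, was at 7881, 6736 and 7665 FPKM in vehicle 1 to 3 and 5519, 4777 and 4717 FPKM in perhexiline 1 to 3 (log2 difference -0.57, limma adjusted p = 0.0245). ATP6, the proton channel of complex V, fell from 10954 ± 859.5 to 7960.4 ± 525 FPKM (limma adjusted p = 0.0368), and CYTB of complex III fell from 6460.1 ± 563 to 4793 ± 439 FPKM (limma adjusted p = 0.0478). COX1, the most abundant of them, was at 17454 ± 736 FPKM with vehicle and 14513 ± 1420.3 FPKM with perhexiline (limma adjusted p = 0.156). All genes of the mitochondrial genome together took 7.71%, 6.88% and 7.75% of fragments in vehicle 1 to 3 and 6.65%, 5.87% and 5.88% in perhexiline 1 to 3.

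Of the nuclear subunits of complex I, the largest entry point of the chain, 7 of 35 fell, beside 3.11% of all genes. Of the 739 genes with a mean of at least 100 FPKM, 83 were called lower. All 35 had a log2 difference below 0, and the median was -0.20. For 1 of them, Ndufa1, the sign carries no information, with 1.37, 162 and 2.01 FPKM in vehicle 1 to 3, 376, 0.299 and 0.269 FPKM in perhexiline 1 to 3 and a 95% interval of -6.05 to 5.45. The 4 with the smallest adjusted p were Ndufa5, from 274 ± 3.90 to 221 ± 3.08 FPKM, Ndufs1, from 159 ± 5.53 to 122 ± 8.12 FPKM, Ndufa10, from 86.3 ± 3.07 to 70.2 ± 2.87 FPKM, and Ndufab1, from 70.2 ± 0.828 to 59.3 ± 1.73 FPKM (limma adjusted p = 0.0126, 0.0203, 0.0245 and 0.0285). Their log2 differences thus had the sign of 43 of the 46 genes of complexes II to V, in the same libraries.

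Assembly factors are proteins that build the complexes without staying in them. The counts below come from short lists and stand beside 3.11% of all genes called lower. Of 3 tested factors of complex II, Sdhaf4, which binds free Sdha, fell from 35.2 ± 2.76 to 27.6 ± 1.23 FPKM (limma adjusted p = 0.0340), and the list median was -0.0038. Of 6 factors of complex III, 0 passed by limma, 0 had an unadjusted p under 0.05, and the median was -0.06. The most abundant, Uqcc2 and Uqcc1, were at 46.7 ± 3.44 FPKM with vehicle and 47.3 ± 3.23 FPKM with perhexiline, and at 39.1 ± 0.914 FPKM with vehicle and 38.4 ± 0.407 FPKM with perhexiline. Of 24 factors of complex IV, Coa5, Oxa1l and Lrpprc fell and the median was -0.06. Coa5 went from 80.3 ± 2.21 to 69.5 ± 1.17 FPKM (limma adjusted p = 0.0377). Oxa1l, the insertase of the inner membrane, went from 77.5 ± 2.45 to 66.6 ± 2.45 FPKM (limma adjusted p = 0.0443). Lrpprc, which stabilizes mitochondrial mRNAs, went from 59.4 ± 2.65 to 50.9 ± 0.903 FPKM (limma adjusted p = 0.0450). Of 6 factors of ATP synthase, 2 fell and the median was -0.09. Tmem70, needed to assemble the c-ring, fell from 27.7 ± 2.58 to 20.1 ± 1.72 FPKM (log2 difference -0.44, limma adjusted p = 0.0329), and Atpaf1, a chaperone of Atp5f1b, fell from 13.0 ± 0.207 to 10.8 ± 0.386 FPKM (limma adjusted p = 0.0487).

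Genes of the mobile electron carrier and of ATP export gave 0 calls by limma among 6 tested, with 4 at an unadjusted p under 0.05 and a median of -0.14. Among the 739 genes with a mean of at least 100 FPKM, 337 had an unadjusted p under 0.05. The most abundant, Slc25a4, the ATP/ADP exchanger of heart, was at 1195 ± 28.7 FPKM with vehicle and 1069 ± 38.1 FPKM with perhexiline (limma adjusted p = 0.112), and Slc25a3, the phosphate carrier, at 1007 ± 13.6 FPKM with vehicle and 863 ± 51.9 FPKM with perhexiline (limma adjusted p = 0.0616). Slc25a5, the exchanger of proliferating cells, was at 382 ± 10.2 FPKM with vehicle and 387 ± 10.3 FPKM with perhexiline (limma adjusted p = 0.844).

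Of 19 tested regulators of respiratory genes, 3 fell and 1 rose, beside 3.11% and 3.55% of all genes, and the median was 0.06, so that 1 gene higher is near the share over all genes. Ppargc1a, the coactivator that drives mitochondrial gene programs, fell from 30.5 ± 1.11 to 24.7 ± 1.52 FPKM (log2 difference -0.29, limma adjusted p = 0.0365). Perm1, a muscle regulator that acts with it, fell from 27.4 ± 1.87 to 18.7 ± 2.40 FPKM (limma adjusted p = 0.0285), as did the muscle transcription factor Mef2c, from 19.9 ± 0.611 to 14.1 ± 0.889 FPKM (limma adjusted p = 0.0145). Pprc1, a relative of Ppargc1a, rose from 18.5 ± 0.734 to 22.7 ± 1.17 FPKM (limma adjusted p = 0.0383). These single calls rested on as few libraries as those of the subunits. Of the 20 genes called in the lists of partners, complex I, assembly factors and regulators, 0 were called without vehicle 1, 2 without vehicle 2 (Ndufa5 and Mef2c), 1 without perhexiline 2 (Mef2c) and 0 without perhexiline 3. Without vehicle 3 the number was 11 and without perhexiline 1 it was 14. Ppargc1a, Oxa1l, Coa5 and Atpaf1 were called in none of these 6 fits, at limma adjusted p-values of 0.0506 to 0.152.

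**Figure D5:**
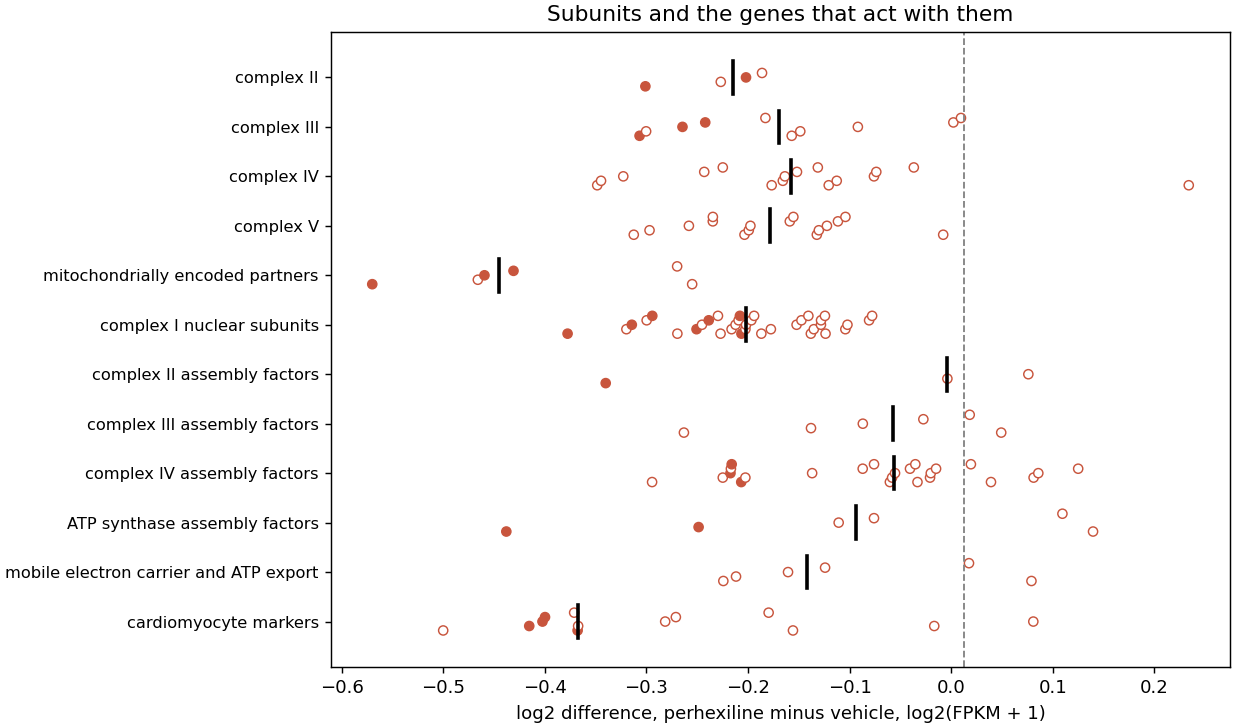
Log2 difference, perhexiline minus vehicle, of each tested gene (circles, filled where the adjusted p is under 0.05) in complexes II to V, in the genes that act with them and in cardiomyocyte markers; bars are medians and the dashed line is the median of all genes, 0.01. The subunit medians lie between -0.21 and -0.16, the mitochondrially encoded partners at -0.45 and the cardiomyocyte markers at -0.37.

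Some markers of cell types changed in the same libraries, beside 3.11% of all genes called lower and 3.55% called higher. Of 13 tested cardiomyocyte markers 4 fell (Actn2, Myh6, Myl2 and Tnni3), 12 had a log2 difference below 0, the median was -0.37, and their summed FPKM was 24483, 24445 and 20330 with vehicle and 19351, 16811 and 17456 with perhexiline. Here too vehicle 3 was the lowest vehicle library and perhexiline 1 the highest perhexiline library. Of 12 fibroblast markers 3 fell (Col3a1, Thy1 and Vim) and 2 rose (Dcn and Pdgfra), with sums of 1689 to 1757 FPKM with vehicle and 1639 to 1726 with perhexiline. Sums are over all markers of a list in the table, tested or not. The 11 macrophage and leukocyte markers summed to 96.3 to 101.1 FPKM with vehicle and 53.0 to 80.8 with perhexiline, and 2 of the 9 tested were lower (C1qa and Mrc1). The 10 smooth muscle and pericyte markers summed to 1293 to 1786 and 1170 to 1398 FPKM, with 0 of 9 tested called by limma and 4 at an unadjusted p under 0.05. Of 3 tested red blood cell genes Hba-a2 rose, and the 5 genes of that list summed to 5.13 to 9.44 and 11.6 to 12.5 FPKM. Of 9 tested immediate early genes, which respond to handling, 4 rose (Atf3, Ier2, Jun and Nr4a1), and the 10 of that list summed to 180 to 215 and 254 to 369 FPKM. None of the 16 marker genes called was called in all 6 fits that leave out 1 library. Of 4 tested endothelial markers 0 were called by limma and 0 had an unadjusted p under 0.05, and the 9 of that list summed to 17.3 to 20.3 and 19.1 to 19.9 FPKM. The part of these shifts in the subunit values was not tested.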

How the data were processed

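Per the file headers, the authors deposited FPKM for each gene in each library, beside a gene length in bases and coordinates. The submitters' processing notes name HISAT2 2.0.5 and DESeq2, with no role. Build, annotation and counting method are not given in these sources, so reads shared by copies or antisense genes cannot be told apart. FPKM times length gave whole multiples of 1 step per library for 100.0% of positive values (tolerance 0.01), taken as fragments. The 13460 genes with 1 FPKM or more in 3 or more libraries were tested on log2(FPKM + 1), which understates the change of low genes, with limma 3.58.1 in R 4.3.3 (trend, two-sided, group the only term), with Benjamini-Hochberg adjustment over all of them and a call under 0.05. Percent changes compare mean FPKM.

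The genes, lists, tests and rule for named genes (every called member, isoform pairs, core and catalytic subunits, Atp5if1, Cox7a2l, and of each list up to 4 called genes or the 2 most abundant) were chosen with earlier results of these data known. Genes outside the rule, among them Cox6c, Cox5b, Uqcrh and Slc25a5, and all roles were picked after their values were seen. Mitochondrial symbols were matched by alias. Alternatives were other pseudocounts, filters and scalings, limma-voom, the replicate number as a block and each library left out. The fit was also run on simulated data, whose changes were larger than those of the tested subunit genes, so that run does not speak to calls of this size.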

Additional observations from a re-analysis of the deposited data

How the results depend on the processing

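The median log2 difference of the subunit genes stayed below 0 under every alternative run, from -0.23 to -0.12, and 41 to 45 of them lay below 0, while 0 were called higher. The number called lower was not stable. Of the main 5 (2 in complex II, 3 in complex III), 0 passed with no filter on low values (0 in complex II, 0 in complex III), and 2 passed under total-fragment scaling (1 in complex II, 1 in complex III). A minimum mean of 5 FPKM gave 9 (3 in complex V), limma-voom 12 (2 in complex IV, 4 in complex V), upper-quartile scaling 7 (2 in complex V) and a pseudocount of 0.1 gave 6 (1 in complex V). The cause was not tested. The number of genes tested was 22998 with no filter and 9282 with the higher minimum. In these 2 fits 21 and 26 subunit genes had an unadjusted p under 0.05 by limma, against 25 in the main fit. The number called in all genes moved too, with 63 lower and 99 higher without the filter, 866 lower by limma-voom and 337 lower and 815 higher under total-fragment scaling.

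With the replicate block 0 passed (0 in complex II, 0 in complex III), with a smallest limma adjusted p of 0.0508, 28 at an unadjusted p under 0.05, and 72 lower and 101 higher among all genes. Same-numbered libraries did not deviate together over all genes tested (correlations -0.023, -0.101 and -0.039). With 3 libraries per group this does not settle whether the numbers pair the samples. Leaving out 1 library gave 0 to 9 called lower, 0 to 3 in complex II, 0 to 3 in complex III, 0 to 1 in complex IV and 0 to 2 in complex V.

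Signs turned for 4 genes near 0 and, with 1 library left out, for Atp5pb and Cox5b, whose libraries spread widely. Atp5if1 was at 0.048 and Cox6a1 at 0.019 under total-fragment scaling. Uqcr10 was at -0.0078, -0.0016 and -0.0011 and Uqcrq at -0.015, -0.0092 and -0.0099 under upper-quartile scaling, median-of-ratios scaling and limma-voom. Leaving out 1 library moved Atp5pb from -0.58 to 0.039, Cox5b from -0.35 to 0.079, Uqcr10 from -0.073 to 0.063, Uqcrq from -0.067 to 0.079, Cox6a1 from -0.067 to 0.0059 and Atp5if1 from -0.064 to 0.049. The isoform ratios kept their sign in all alternatives run. Depth limits the genes with few fragments, Cox6b2 and Cox4i2, for which no difference was detectable, and Cox7a1, which was not tested.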

Other observations

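Rat genomes hold many copies of these genes. Beside the 50 genes, 41 rows of the table are described as matching the protein of a subunit, most of them pseudogenes or unnamed loci, and 14 of them were listed at 0 in all 6 libraries. Only 10 had a mean of at least 1 FPKM. The highest were AABR07004397.2, matched to Atp5mj, at a mean of 171 FPKM over the 6 libraries (log2 difference -0.20, limma adjusted p = 0.509), and LOC100361008, a Cox5a copy, at 87.3 FPKM (log2 difference -0.02, limma adjusted p = 0.842). An unnamed locus of chromosome 6 matched to Atp5mpl was at 78.6 FPKM (log2 difference -0.13, limma adjusted p = 0.259). None of the 50 genes is named Atp5mj or Atp5mpl, so the loci matched to these symbols have no namesake among the genes followed here. Whether they are copies or genes of their own was not tested. AABR07015346.1, a Cox7a2 copy, was at 47.5 FPKM (log2 difference -0.32, limma adjusted p = 0.221). All of these were named after their values were seen, and how far fragments were split between copies was not tested.

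Across the 43 tested genes above 15 FPKM, the log2 difference showed a weak relation to gene length (Pearson r -0.11, Spearman rho -0.10) and to mean level (r -0.13, rho -0.09). All these genes come from the same 6 libraries and are not independent, so the values are a description.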
